A study of Mus musculus with 48 samples.

Results

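The genes described here encode the collagens, the laminin chains and the secreted or membrane-bound proteases of the extracellular matrix in kidneys of NZB/W F1 mice, in which lupus nephritis arises spontaneously. They were chosen by symbol, as every gene named on the array that is a collagen chain, a laminin alpha, beta or gamma chain, a matrix metalloproteinase (Mmp) or a member of the Adamts and Adamtsl families. Of 81 such genes, 61 had a probe detected above the negative control beads (detection p under 0.05) on at least 3 arrays, against 11559 genes that passed the same filter on the whole array. Of the 61, 32 were detected on every array, and 5 just reached the limit, on 3 to 5 arrays (Col28a1, Col9a2, Mmp24, Col4a6 and Col25a1). Of the 20 left out, 5 were detected on 1 or 2 arrays (Mmp12, Mmp7, Adamts12, Adamts19 and Adamts20) and the rest on 0, among them Col5a2, Col10a1 and Mmp8. The 61 genes comprise 30 collagens, 8 laminins, 13 Mmp genes and 10 Adamts or Adamtsl genes. Nephritic mice had had proteinuria above 300 mg/dl for 2 to 3 weeks at harvest, with a blood urea nitrogen still at or below 25. Young mice were 12 weeks old. No agent is named in the labels for either group. Whole kidneys were perfused with PBS, and each was taken at 1 of 6 Zeitgeber times (ZT), 4 h apart, where ZT0 is lights on and ZT12 lights off. There were 22 nephritic arrays (3 to 5 at each time) and 26 young arrays (4 to 6 at each time). Nephritic mice were also older than young mice, so nephritis and age cannot be told apart here.

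Collagens assemble from chains into fibrils or sheets. Fibrillar collagens such as Col1a1 and Col3a1 form the interstitial scaffold, whereas collagen IV and the laminins build basement membranes. In the kidney, Col4a1 and Col4a2 chains form the collagen IV network found in nearly all basement membranes, and Col4a3, Col4a4 and Col4a5 chains form the network of the mature glomerular basement membrane. The Mmp enzymes cleave matrix proteins and each other, and the Adamts enzymes cleave proteoglycans, procollagens and von Willebrand factor.

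Levels are given as normalized log2 signals, so a difference of 1 is a doubling. Between 12706 and 14077 probes were detected per array. A set of 8 nephritic arrays stood apart from the rest: every array of ZT0 and ZT4 and the third replicate of both ZT16 and ZT20. On these 8 arrays the poly(A)-binding protein gene Pabpc1 was at 5.94 to 6.69, against 8.20 to 9.51 on the other 14 nephritic arrays and 8.52 to 9.37 on young arrays. Results are therefore given with and without these arrays where they differ. At ZT12 the titles of 2 nephritic arrays carried the code HIL and those of 3 the code RX, and the arrays of other times carried other codes. The labels class both codes as nephritic and do not explain them. The study also held treated mice in remission, taken at ZT0 or ZT12. The paper lists these mice under RNA sequencing only, with none on microarrays. It lists the nephritic microarrays of ZT12 as sets of 2 and 3, the same numbers as HIL and RX. The RX arrays are kept here as labelled, and leaving them out is reported beside the counts they touch. No title code was shared by nephritic and young arrays, so title code and diagnosis cannot be told apart. All 5 proximal tubule markers and all 4 markers of the thick limb and distal tubule were detected, and 2 of the 5 and 3 of the 4 were lower in nephritic kidneys (Slc5a2 by -1.05, Pvalb by -0.76 and Slc12a1 by -0.69 the most). Markers of other cells are counted where detected on at least 3 arrays of each diagnosis. Of these, 5 of 5 macrophage and monocyte genes, 3 of 3 T cell genes and the B cell gene Cd79b were higher in nephritic kidneys. So were 5 of 8 fibroblast and mural cell genes, whereas 0 of 6 endothelial genes were higher and 1 was lower by limma. Of 3 podocyte genes Ptpro was higher (0.35) and Wt1 lower (-0.28). Of 3 collecting duct genes Aqp2 and Scnn1g were higher and Aqp3 was lower. None of the neutrophil, fat or adrenal gland genes so detected passed. Cd2, Cd79a, Itgam, Ms4a1 and S100a8 were detected on 4 to 21 nephritic and 0 to 2 young arrays. Without the 8 arrays, over ZT8 to ZT20, the calls of Slc12a3, Aqp2, Ptpro, Wt1 and Dcn were lost. Ehd3, an endothelial gene, was then lower (-0.30). With every array of those 4 times, Aqp2, Wt1 and Dcn also lost their calls and Ehd3 was also lower (-0.34). The summed signal of the fibroblast and mural markers was 2347 to 9744 on nephritic and 2032 to 3696 on young arrays, and that of the macrophage markers was 962 to 5949 on nephritic and 468 to 781 on young arrays. Their part in the results below was not tested. In whole kidney RNA, a change in the number of cells of a type and a change in RNA per cell cannot be told apart.

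Averaged over the 6 times, 35 of the 61 genes were higher in nephritic kidneys, 6 were lower and 20 did not pass the threshold (limma, adjusted p under 0.05 over all tested genes). Of all tested genes, 36.5% were higher and 28.6% lower. The share of matrix genes called in either direction (67.2%, 41 genes) was near that of all tested genes (65.1%). Of the 35, Col3a1, Mmp10, Mmp24 and Adamts4 met the detection limit only through nephritic arrays, where they are high, so their place in that count was partly set by the filter. Among the 52 genes detected on at least 3 arrays of each diagnosis, 31 were higher (59.6%), 6 lower (11.5%) and 15 did not pass, against 37.9% higher, 30.6% lower and 68.6% in either direction among all 10250 such genes. The median difference, nephritic minus young, was 0.28 for these 52 genes and 0.03 for all such genes. A difference of at least 2-fold was reached by 7 genes upwards and by 0 downwards, against 3.55% and 2.28% of all tested genes. For 0 of the 61 genes did all nephritic arrays lie above or below all young arrays, against 0.943% and 0.0173% of all tested genes. By role, and among genes detected on at least 3 arrays of each diagnosis, 3 of 8 fibrillar collagens, both collagen VI chains, 7 of 9 other collagens, 7 of 11 Mmp genes, 4 of 7 Adamts genes and both Adamtsl genes were higher. Of these groups, the Mmp genes were the only one with a lower member, and it had 1. Collagen IV and the laminins moved both ways: 2 collagen IV chains were higher and 3 lower, and among the laminins 4 were higher and 2 lower. The 20 genes that did not pass differed by -0.09 to 0.28. Without the 8 arrays, over ZT8 to ZT20, 25 genes were higher and 5 lower, against 25.8% and 20.5% of all tested genes. The 5 were Col4a3, Col4a5, Mmp13, Lama4 (-0.17, adjusted p = 0.0451) and Mmp1a (-0.18, adjusted p = 0.0317). Lama4 and Mmp1a had not passed over all 6 times, and Lama4 was near background. With every array of those 4 times the counts were 27 and 5, against 29.3% and 23.6%, and the lower genes were the same. Calls of Col4a4, Col7a1, Col14a1, Col23a1, Lama2, Lamb1, Lamc3, Mmp9, Mmp11, Mmp24, Adamts7 and Adamts15 were lost in both of these fits. Without the RX arrays and the young arrays of ZT12 titled ZT, 34 were higher and 6 lower. Fitting the 8 arrays as a covariate left 13 genes higher and 3 lower, against 19.5% and 14.1%. The genes past the threshold in every alternative fit and on leaving out any array were Col1a1, Col5a1, Col4a1, Col6a1, Col6a2, Lama1, Lamb2, Mmp14, Mmp17, Mmp23, Adamtsl2 and Adamtsl4, all higher, and Col4a3, Col4a5 and Mmp13, all lower (15 of the 41).

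**Figure D1:**
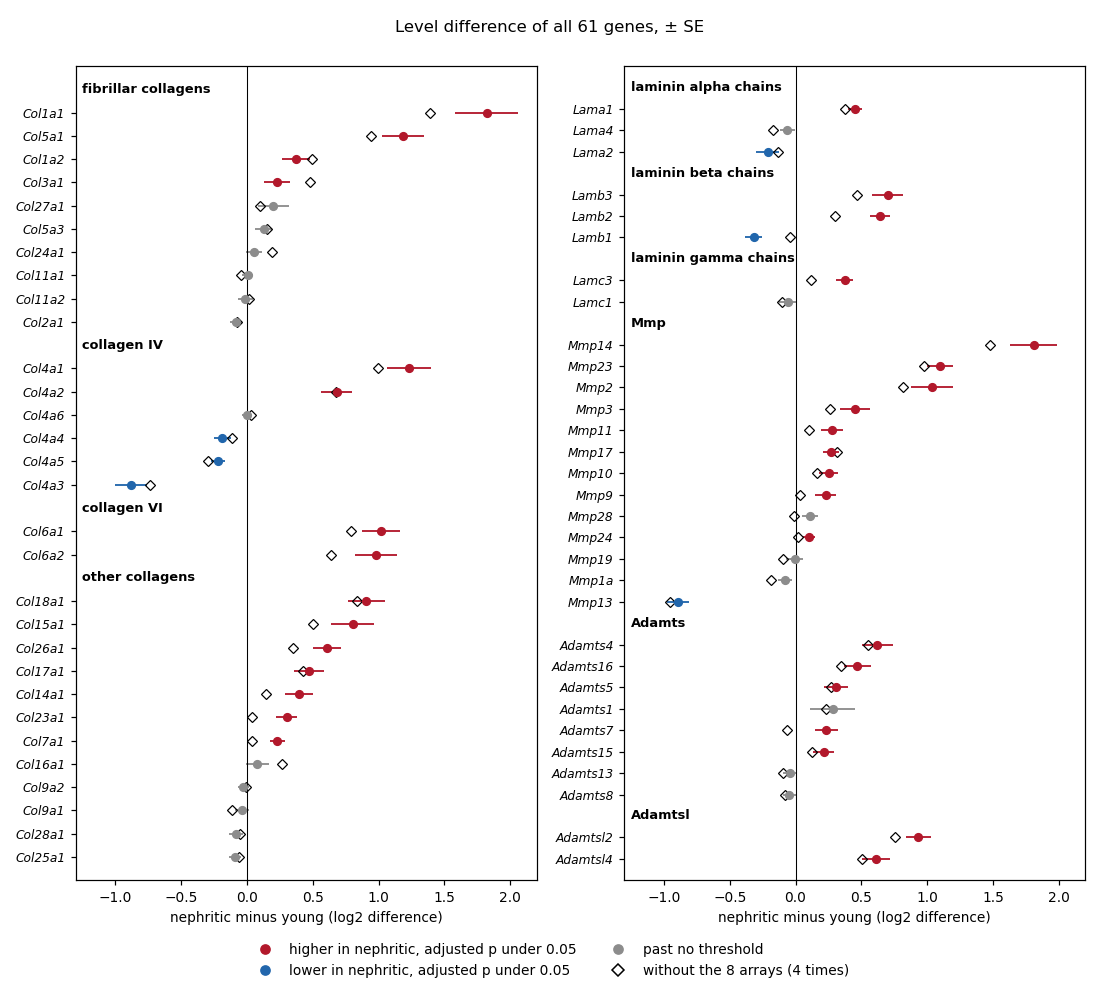
Difference in level (nephritic minus young, log2, mean over 6 times) of the 61 genes by role, with bars of 1 SE from limma. Diamonds give the difference over ZT8 to ZT20 without the 8 nephritic arrays with low Pabpc1. Col1a1 (1.82) and Mmp14 (1.81) lie farthest to the right, and Mmp13 (-0.89) and Col4a3 (-0.88) farthest to the left.

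Among fibrillar collagens, Col1a1, which encodes the main chain of type I collagen, had the largest difference. Its lowest, median and highest levels were 6.01, 7.50 and 9.70 in nephritic kidneys, and 4.99, 5.69 and 6.54 in young kidneys. All 22 nephritic arrays lay above the young mean of their time, yet the lowest of them lay within the young range. The difference was 1.82 ± 0.24 (SE, 3.53-fold, adjusted p = 1.72e-08), and 1.39 without the 8 arrays (adjusted p = 9.59e-05). Col5a1, a chain of the collagen V that nucleates type I fibrils, was at 5.93, 7.37 and 8.77 in nephritic kidneys and at 5.75, 6.15 and 6.58 in young kidneys. Its difference was 1.19 ± 0.16 (2.28-fold, adjusted p = 2.83e-08), with 21 of 22 nephritic arrays above the young mean of their time. Col1a2, which pairs with Col1a1 in type I collagen, was dimmer and less often detected (18 of 22 nephritic and 11 of 26 young arrays). It was higher by 0.37 ± 0.10 (adjusted p = 0.00197). Col3a1, of type III collagen, was above background on 11 of the 22 nephritic arrays and on 2 of the 26 young ones. It reached the detection limit only through nephritic arrays, and its young level lay at background. The nephritic mean was 4.80, against a young mean of 4.48, or 4.66 with young values under the lowest detected signal of their array raised to it. The fitted difference of 0.23 ± 0.10 is therefore given as a description. Its call was lost in 18 of the 48 fits that each left out 1 array, with an adjusted p of up to 0.102. Its other probe was detected on 0 arrays. Over ZT8 to ZT20 the Col3a1 difference was 0.45 with every array of those times and 0.48 without the 8 arrays. The remaining fibrillar genes, Col2a1, Col5a3, Col11a1, Col11a2, Col24a1 and Col27a1, differed by -0.08 to 0.20 without passing the test, and all but Col27a1 were near background.

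**Figure D2:**
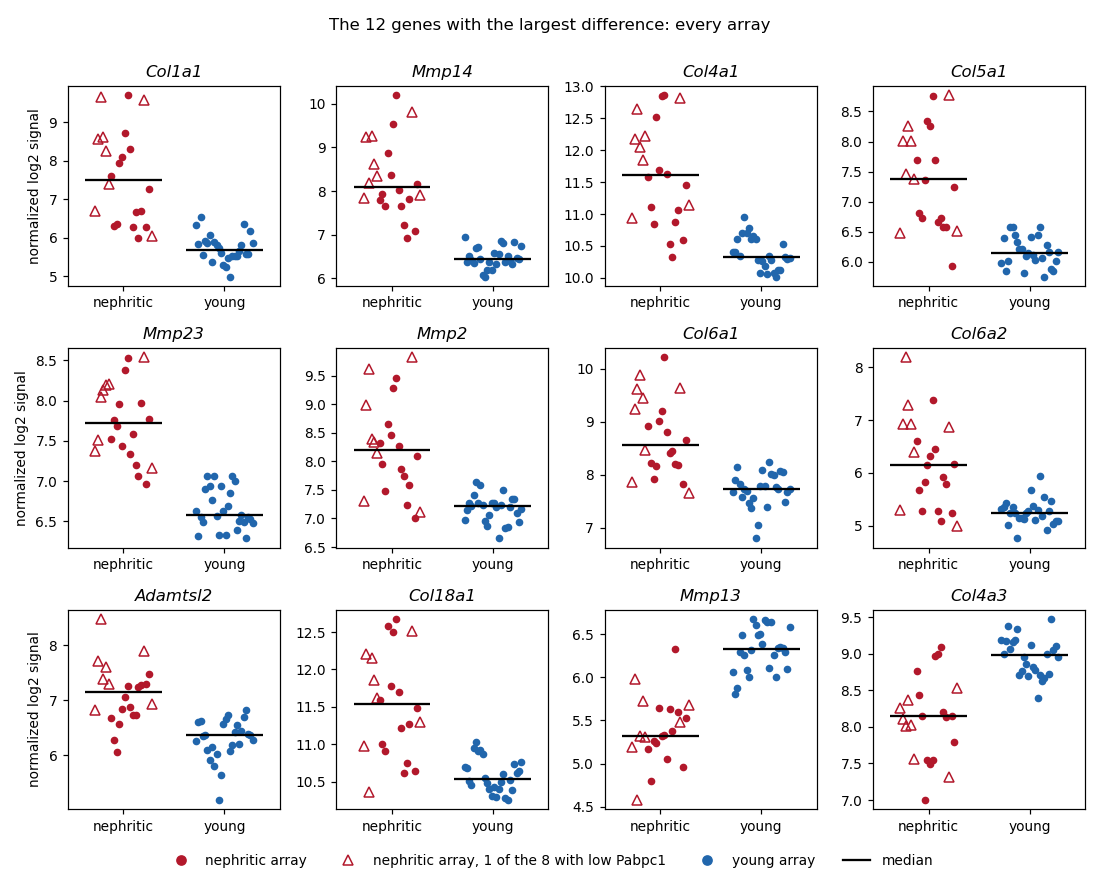
Normalized log2 signal of the 12 genes with the largest difference on every array, nephritic left and young right, with a line at each median. Open triangles are the 8 nephritic arrays with low Pabpc1. In 10 panels the nephritic median is higher, and in those of Mmp13 and Col4a3 it is lower, with the groups overlapping in every panel.

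Of the collagen IV chains, Col4a1 and Col4a2 were higher and Col4a3, Col4a5 and, by 1 of its 2 probes, Col4a4 were lower in nephritic kidneys. Col4a1 was at 10.33, 11.60 and 12.86 (lowest, median, highest) in nephritic kidneys, and at 10.02, 10.33 and 10.95 in young kidneys. All 22 nephritic arrays exceeded the young mean of their time, by 1.23 ± 0.16 on average (2.35-fold, adjusted p = 2.17e-08). Col4a2 was at 9.72, 10.29 and 11.85 in nephritic kidneys and at 9.17, 9.74 and 10.14 in young kidneys. Its difference was 0.68 ± 0.12 (1.60-fold, adjusted p = 4.23e-06) with 20 of 22 nephritic arrays above the young mean. Col4a3, a chain of the glomerular network that carries the Goodpasture antigen, was at 7.0, 8.15 and 9.10 in nephritic kidneys, against 8.39, 8.98 and 9.48 in young kidneys. It fell by 0.88 ± 0.12 (1.84-fold lower, adjusted p = 3.76e-08), and 19 of 22 nephritic arrays lay below the young mean of their time. The 3 exceptions were the RX arrays of ZT12, where Col4a3 was at 8.98 to 9.10, against 7.49 and 7.54 on the HIL arrays and 8.39 to 9.12 on young arrays of that time. Col4a5, its partner encoded on the X chromosome, fell by 0.22 ± 0.05 (adjusted p = 4.66e-04), with medians of 6.60 in nephritic and 6.87 in young kidneys. Col4a4 had medians of 8.78 in nephritic and 8.88 in young kidneys and fell by 0.19 ± 0.07 (adjusted p = 0.0112). Its second probe, detected on all 48 arrays, differed by -0.14 and did not pass (adjusted p = 0.189). The call for Col4a4 was lost without the 8 arrays (-0.11, adjusted p = 0.297), while those for Col4a3 (-0.73, adjusted p = 8.19e-04) and Col4a5 (-0.29, adjusted p = 5.85e-04) were kept. Col4a6 was detected on 4 arrays in all and did not differ by the test (0.00 ± 0.04, adjusted p = 0.980).

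**Figure D3:**
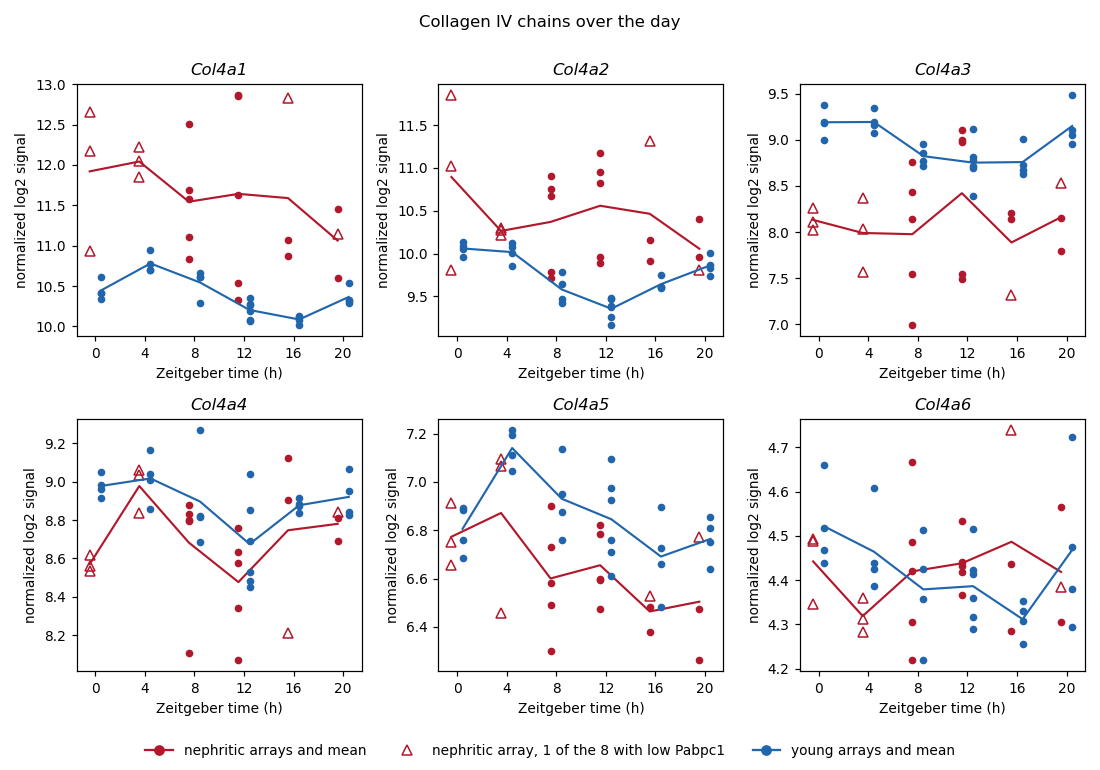
Normalized log2 signal of the 6 collagen IV chains by Zeitgeber time (h), nephritic and young arrays with lines through group means. Open triangles are the 8 nephritic arrays with low Pabpc1. Nephritic means of Col4a1 and Col4a2 are above the young means at all 6 times, and those of Col4a3 are below them at all 6 times.

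Col4a1 and Col4a2 lie head to head on chromosome 8, and their promoters are shown because both genes moved together. The windows are RefSeq sequences of the GRCm38.p6 build, from 250 bases before to 50 bases after the annotated start. Start sites are 21 bases apart on opposite strands and the windows share 78 bases. Of the 61 genes, 42 had a promoter in that table (47 windows). Capitals mark a GC box (GGGCGG) or a CCAAT box (CCAAT), searched on both strands together with the AP-1 motif TGANTCA, the TATA box TATAAA and the clock E-box CACGTG. The Col4a1 window is chr8:11312777-11313076 (minus strand) and the Col4a2 window chr8:11312555-11312854 (plus strand), with a GC content of 74.0% and 73.7% against a median of 52.7% over all promoters.
Col4a1: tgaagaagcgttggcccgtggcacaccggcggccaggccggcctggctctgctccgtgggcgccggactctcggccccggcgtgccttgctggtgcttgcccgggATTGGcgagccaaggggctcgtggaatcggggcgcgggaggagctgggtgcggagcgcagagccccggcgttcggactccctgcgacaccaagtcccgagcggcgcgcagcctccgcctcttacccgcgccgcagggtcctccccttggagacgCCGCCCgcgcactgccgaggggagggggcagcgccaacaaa
Col4a2: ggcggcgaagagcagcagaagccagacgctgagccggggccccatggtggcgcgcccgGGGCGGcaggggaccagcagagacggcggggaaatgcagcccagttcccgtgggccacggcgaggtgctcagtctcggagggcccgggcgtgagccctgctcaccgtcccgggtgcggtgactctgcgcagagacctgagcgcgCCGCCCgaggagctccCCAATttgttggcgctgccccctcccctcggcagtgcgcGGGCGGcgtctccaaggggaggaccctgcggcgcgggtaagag
The Col4a1 window held 1 GC box and 1 CCAAT box, and the Col4a2 window held 3 GC boxes and 1 CCAAT box. The GC box of Col4a1 is the same stretch as the last one of Col4a2, read from the other strand. Of all 32851 promoters, 35.7% held a GC box, 37.4% a CCAAT box, 7.81% the AP-1 motif, 13.6% the TATA box and 7.15% the E-box. A match in letters is not evidence of binding.

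Both detected collagen VI chains, of the beaded filaments that link cells to the interstitium, were higher. A further chain on the array, Col6a6, was detected on 0 arrays. Col6a1 was at 7.65, 8.55 and 10.22 in nephritic kidneys and at 6.80, 7.73 and 8.24 in young kidneys, a difference of 1.02 ± 0.14 (2.03-fold, adjusted p = 5.26e-08). A second probe for Col6a1 differed by 1.12. Col6a2, its neighbour on chromosome 10, was at 4.99, 6.15 and 8.19 in nephritic kidneys and at 4.76, 5.24 and 5.94 in young kidneys, a difference of 0.98 ± 0.16 (adjusted p = 1.24e-06). Both calls held without the 8 arrays, at 0.79 for Col6a1 and 0.64 for Col6a2. Col18a1 and Col15a1 encode the collagens of vascular and tubular basement membranes whose ends release the fragments endostatin and restin. Col18a1 was at 10.36, 11.54 and 12.68 in nephritic kidneys and at 10.25, 10.54 and 11.02 in young kidneys, a difference of 0.91 ± 0.14 (adjusted p = 5.43e-07). Its second probe differed by 0.94. Col15a1 was higher by 0.80 ± 0.16 (adjusted p = 4.53e-05). The other collagens that were higher were Col26a1 (0.61), Col17a1 (0.47), Col14a1 (0.40), Col23a1 (0.30) and Col7a1 (0.23). Those of Col14a1, Col23a1 and Col7a1 did not pass without the 8 arrays, where they differed by 0.15, 0.04 and 0.04. Col16a1 did not pass over all 6 times (0.08 ± 0.09). Over ZT8 to ZT20 it passed without the 8 arrays (0.27, adjusted p = 0.0146) and with every array (0.23, adjusted p = 0.0324). Col9a1, Col9a2, Col25a1 and Col28a1 did not pass, and Col28a1 was detected on 0 nephritic and 3 young arrays.

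Laminin chains assemble as trimers of an alpha, a beta and a gamma chain. Lama1, an alpha chain of embryonic and tubular basement membranes, was at 6.70, 7.13 and 7.85 in nephritic kidneys and at 6.34, 6.70 and 7.18 in young kidneys. It was higher by 0.45 ± 0.05 (1.36-fold, adjusted p = 2.13e-09), on 21 of 22 nephritic arrays. Lamb2, the beta chain of the mature glomerular laminin, was at 7.84, 8.34 and 9.67 in nephritic kidneys and at 7.61, 7.85 and 8.29 in young kidneys. Its difference was 0.64 ± 0.08 (adjusted p = 1.80e-09) over all arrays and 0.30 (adjusted p = 0.00379) without the 8 arrays, whose mean was 8.93, against 8.22 on the other 14 nephritic arrays. Lamb3, a chain of the epithelial laminin that anchors skin, was at 5.67, 7.11 and 8.15 in nephritic kidneys and at 5.88, 6.32 and 6.95 in young kidneys, a difference of 0.70 ± 0.12 (adjusted p = 2.41e-06). Lamc3 was higher by 0.37 ± 0.06 (adjusted p = 2.96e-06), and by 0.12 without the 8 arrays (adjusted p = 0.240). Lamb1, the beta chain that the glomerulus uses before Lamb2, fell by 0.32 ± 0.06 (adjusted p = 3.12e-05). On the 8 arrays it was at 4.21 to 4.35, below its lowest young level of 4.57, and without them it differed by -0.04 (adjusted p = 0.663). Lama2, the alpha chain of muscle and of the mesangium, fell by 0.21 ± 0.09 (adjusted p = 0.0323). Without the 8 arrays it differed by -0.14 (adjusted p = 0.329), and over the same 4 times with every array by -0.11 (adjusted p = 0.393). Its call was also lost with a covariate for the 8 arrays (adjusted p = 0.119), title codes as a random block (adjusted p = 0.150) or array weights. Among fits that left out 1 array, the Lama2 call was lost without replicate 3 of young ZT0, replicate 4 of young ZT20, replicate 3 of nephritic ZT0, replicate 3 of nephritic ZT4 or replicate 2 of nephritic ZT16, where the difference was -0.17 to -0.20. Lamc1, the common gamma chain, had medians of 7.60 in nephritic and 7.64 in young kidneys (-0.06 ± 0.07, adjusted p = 0.448). Lama4, of vessel walls, differed by -0.06 ± 0.05 over all arrays (adjusted p = 0.331) and by -0.17 without the 8 arrays (adjusted p = 0.0451).

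Among the Mmp genes, the 3 largest differences belonged to Mmp14, Mmp23 and Mmp2, all upwards. Mmp14, a membrane-bound collagenase that activates pro-Mmp2 together with Timp2, was at 6.94, 8.09 and 10.19 in nephritic kidneys and at 6.04, 6.44 and 6.95 in young kidneys. The groups touched only at the edge, and all 22 nephritic arrays exceeded the young mean of their time, by 1.81 ± 0.18 on average (3.50-fold, adjusted p = 3.25e-11). Mmp2, a gelatinase, was at 7.02, 8.21 and 9.82 in nephritic kidneys and at 6.65, 7.21 and 7.65 in young kidneys. It was higher by 1.04 ± 0.16 (2.05-fold, adjusted p = 5.27e-07). Mmp23, a membrane protease with a toxin-like domain, was at 6.97, 7.72 and 8.54 in nephritic kidneys and at 6.29, 6.58 and 7.06 in young kidneys, a difference of 1.10 ± 0.10 (adjusted p = 2.57e-12). Without the 8 arrays these differences were 1.47, 0.81 and 0.98 for Mmp14, Mmp2 and Mmp23, all past the threshold. Mmp3 (0.45), Mmp11 (0.28), Mmp17 (0.27) and Mmp9 (0.23) were also higher, and of these Mmp17 alone passed without the 8 arrays (0.32). Mmp3 was detected on 11 nephritic and 4 young arrays, and its other probes differed by 0.24 (adjusted p = 0.0189) and 0.01 (adjusted p = 0.949). Mmp10 and Mmp24 were detected on 9 and 3 nephritic and on 0 young arrays. Their nephritic means of 4.60 and 4.49 lay below the young bound of 4.65, the mean of the lowest detected signals of the young arrays, so no fold is given. Mmp13, a collagenase that cuts type II collagen, was the one lower Mmp gene over all 6 times. It was at 4.57, 5.32 and 6.32 in nephritic kidneys, against 5.80, 6.33 and 6.68 in young kidneys, and 21 of 22 nephritic arrays lay below the young mean of their time. It fell by 0.89 ± 0.08 (1.85-fold lower, adjusted p = 1.09e-11), and by 0.95 without the 8 arrays. Its other probes, detected on 3 to 7 arrays in all, did not pass the test. Mmp1a, Mmp19 and Mmp28 did not pass over all 6 times. Over ZT8 to ZT20 without the 8 arrays Mmp1a was lower (-0.18, adjusted p = 0.0317).

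The promoters of Mmp14 and Mmp13 are shown as those of the largest rise and the largest fall among genes with an entry, from the same RefSeq table and with the same motifs in capitals. The Mmp14 window is chr14:54431348-54431647 and the Mmp13 window chr9:7272264-7272563, both on the plus strand.
Mmp14: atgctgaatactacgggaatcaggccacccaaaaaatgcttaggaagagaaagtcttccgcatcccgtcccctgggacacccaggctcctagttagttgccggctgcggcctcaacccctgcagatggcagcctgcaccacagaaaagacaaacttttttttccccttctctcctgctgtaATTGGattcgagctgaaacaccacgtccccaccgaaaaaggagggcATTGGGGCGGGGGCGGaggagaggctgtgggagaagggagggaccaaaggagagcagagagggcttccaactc
Mmp13: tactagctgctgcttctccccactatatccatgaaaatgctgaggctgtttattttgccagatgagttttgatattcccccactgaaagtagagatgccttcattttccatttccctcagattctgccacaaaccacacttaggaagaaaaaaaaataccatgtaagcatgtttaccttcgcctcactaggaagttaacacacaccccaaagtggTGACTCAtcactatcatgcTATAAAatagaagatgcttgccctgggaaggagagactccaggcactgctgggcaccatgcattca
The Mmp14 window held 2 GC boxes in a row, which begin 19 and 13 bases before the start. A CCAAT box on the other strand overlaps the first of them by its last base, and another lies upstream. The Mmp13 window held 1 AP-1 motif (TGACTCA), which begins 35 bases before the start, and 1 TATA box, which begins 16 bases before it. Its GC content was 43.7%, against 56.0% for Mmp14. Of the 47 windows of the matrix genes, 5 held the AP-1 motif (10.6%), 9 the TATA box (19.1%), 29 the GC box (61.7%), 14 the CCAAT box (29.8%) and 0 the E-box.

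The Adamts and Adamtsl genes that passed the test were all higher. Adamtsl2, a protein without protease activity that binds fibrillin microfibrils and latent TGF-beta binding protein, was at 6.06, 7.16 and 8.48 in nephritic kidneys and at 5.18, 6.36 and 6.82 in young kidneys. All 22 nephritic arrays exceeded the young mean of their time, by 0.93 ± 0.09 on average (1.91-fold, adjusted p = 2.40e-11). Adamtsl4 was higher by 0.61 ± 0.11 (adjusted p = 4.01e-06). Adamts4, an aggrecanase, was above background on 16 of the 22 nephritic arrays and on 2 of the 26 young ones, so that it was kept only through the nephritic arrays. Its mean was 5.04 in nephritic kidneys, against 4.40 in young kidneys. With young values under the lowest detected signal of their array raised to it, it was at least 1.30-fold higher in nephritic kidneys. Adamts16 (0.47), Adamts5 (0.31), Adamts7 (0.23) and Adamts15 (0.21) were also higher. The calls of Adamts7 and Adamts15 were lost without the 8 arrays, where Adamts7 differed by -0.07 and Adamts15 by 0.13. For Adamts7, leaving out replicate 3 of nephritic ZT16 alone also ended the call (adjusted p = 0.0603). Adamts1, an early response gene, spread from 4.79 to 7.96 in nephritic kidneys and from 5.17 to 6.52 in young kidneys and did not pass (0.28 ± 0.17, adjusted p = 0.152). Its second probe, detected on 8 nephritic and 0 young arrays, had a fitted difference of 0.25 (adjusted p = 2.67e-04), with a nephritic mean of 4.57 that lay below the young bound. Adamts8 and Adamts13, the von Willebrand factor protease, did not pass.

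Nephritic arrays scattered more than young arrays. For 49 of the 61 genes the residual SD around the group means was larger in nephritic kidneys, with a median ratio of 1.78, against 1.62 over all tested genes. The ratio was highest for Col4a1 (7.24), followed by Col18a1 (6.02) and Col3a1 (5.37). Col3a1 was kept only through nephritic arrays and was detected on 2 of the 26 young arrays. Its young spread is that of values at background, so its ratio is not read as a result. The scatter was shared by array. Averaged over the 35 higher genes, the excess over the young mean of the same time was 1.37 on replicate 3 of ZT16 and 1.34 on replicate 2 of ZT12, against 0.07 on replicate 1 of ZT20. Each of the first 2 arrays held the highest nephritic level for 9 of the 35 genes. For 31 of the 35 genes the mean was higher on the 8 arrays than on the other 14 nephritic arrays. On those 14 arrays the mean was above the young mean for 34 of the 35. The 35 were chosen as higher over all nephritic arrays, which include these 14, so that count was largely set by the choice. At ZT12 the mean on HIL arrays was above that on RX arrays for 31 of the 35. These counts were not made over all tested genes, so they do not single out the matrix genes. Col4a1 was at 12.86 on both HIL arrays and at 11.63, 10.54 and 10.33 on RX arrays, against 10.06 to 10.35 on young arrays of ZT12.

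At single times fewer genes passed the threshold than on average, with the fewest at ZT20. Higher and lower genes numbered 20 and 4 at ZT0, 23 and 4 at ZT4, 14 and 3 at ZT8, 21 and 1 at ZT12, 13 and 2 at ZT16, and 2 and 2 at ZT20. Among the 52 genes detected on at least 3 arrays of each diagnosis they numbered 19 and 4, 23 and 3, 12 and 3, 18 and 1, 12 and 2, and 2 and 2 at these times. Over all tested genes, higher calls made up 24.1%, 29.1%, 12.7%, 15%, 13.9% and 4.18% at these 6 times and lower calls 18.5%, 19.4%, 8.83%, 13.2%, 8.69% and 2.41%. Of the 35 genes higher on average, 22 had their smallest difference at ZT20 and 13 their largest at ZT4. No such count was made over all tested genes, whose higher calls were also fewest at ZT20 and most at ZT4. Every nephritic array of ZT4 is among the 8 that stood apart. The genes higher at ZT20 were Mmp23 (0.84, adjusted p = 0.0385) and Adamtsl2 (0.77, adjusted p = 0.0411), and those lower were Mmp13 (-0.94, adjusted p = 0.00881) and Col4a3 (-0.99, adjusted p = 0.0473). Mmp23 and Adamtsl2 passed at each of the 6 times, and Mmp14, Col4a1, Col5a1 and Lama1 at all but ZT20. These 6 genes were higher at 5 or 6 times, against 5.62% of all tested genes. Single arrays weighed on these counts. Leaving out replicate 3 of nephritic ZT16 left 2 genes past the threshold at ZT16 in place of 15, leaving out replicate 3 of nephritic ZT0 left 14 at ZT0 in place of 24, and leaving out replicate 2 of nephritic ZT12 left 13 at ZT12 in place of 22. Without both HIL arrays 3 genes passed at ZT12, and without the RX arrays and the young arrays titled ZT 30 did. The codes at the start of the sample titles also moved with time, and the diagnoses shared none. A fit with codes as a random block therefore cannot separate code from diagnosis. Fitted with title codes as a random block, the genes past the threshold numbered 5 at ZT0, 16 at ZT4, 5 at ZT8, 12 at ZT12, 2 at ZT16 and 0 at ZT20 (4 at an unadjusted p under 0.05 in limma), so that the calls of Mmp23, Adamtsl2, Mmp13 and Col4a3 at ZT20 were lost (adjusted p of 0.262 to 0.353). With a covariate for the 8 arrays, 0 passed at ZT0 (6 unadjusted) and 4 at ZT4.

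**Figure D4:**
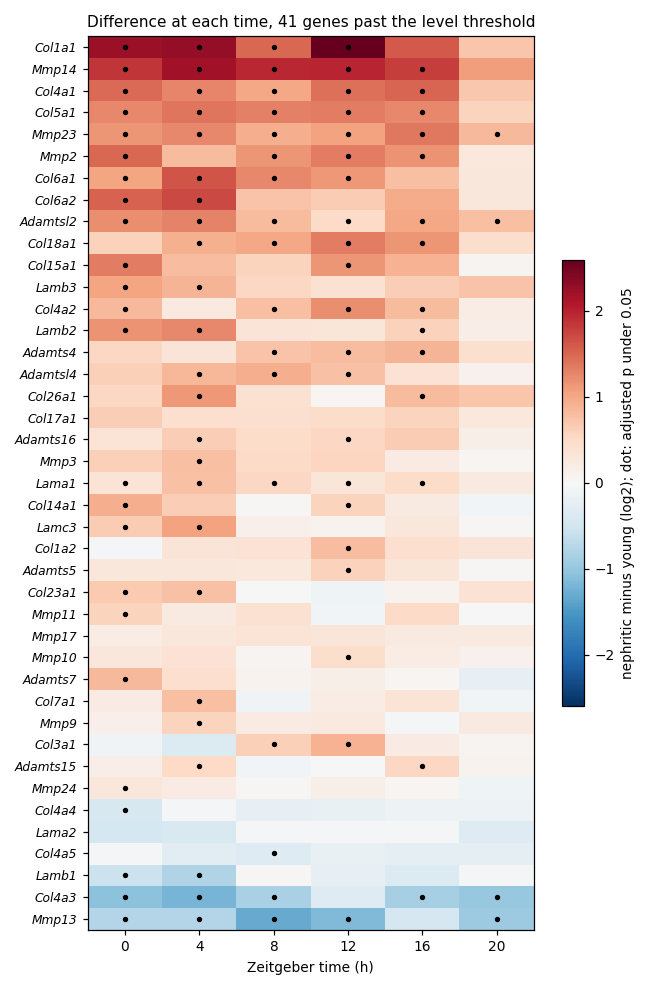
Difference (nephritic minus young, log2) at each Zeitgeber time (h) for the 41 genes past the threshold on average, in order of mean difference. Red is higher and blue lower in nephritic kidneys, and a dot marks an adjusted p under 0.05. Col1a1 at ZT12 has the largest difference (2.60), and the column of ZT20 has 4 dots.

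In young kidneys, 20 of the 61 genes varied over the day (limma F-test of equal means at the 6 times, adjusted p under 0.05), against 18.3% of all tested genes. Young arrays of each time but ZT12 carried a single title code that no other time had, so time and code cannot be told apart in young kidneys. A fit that took the title code as a random block called 9 of them: Col4a2, Col4a1, Col18a1, Adamtsl4, Adamtsl2, Col4a3, Col26a1, Lamb3 and Mmp11. Of the 20 genes, 10 had their highest mean at ZT4, in the light phase, against 18.5% of all genes that varied in young kidneys. Col4a2 had the smallest adjusted p (2.68e-06), with 10.06 ± 0.08 (SD, n = 4) at ZT0 and 9.36 ± 0.12 (SD, n = 6) at ZT12, and the arrays of these times did not overlap. Col4a1 was at 10.78 ± 0.12 at ZT4 and at 10.09 ± 0.05 at ZT16 (SD, n = 4 each, limma adjusted p = 3.75e-05). Col18a1 followed the same times, with 10.95 ± 0.05 at ZT4 and 10.36 ± 0.12 at ZT16 (SD, n = 4 each, limma adjusted p = 4.17e-04). Adamtsl4 and Adamtsl2 were lowest at ZT8, at 4.82 ± 0.24 and 5.66 ± 0.36, and highest at ZT20 (5.63 ± 0.26) for Adamtsl4 and at ZT16 (6.48 ± 0.21) for Adamtsl2. Col4a3 ranged over 0.44 (highest mean at ZT4, adjusted p = 0.00558), Col26a1 over 0.63 (at ZT12, adjusted p = 0.00734) and Lamb3 over 0.60 (at ZT4, adjusted p = 0.00846). The other 12 were Col6a1, Mmp11, Col16a1, Lama1, Col15a1, Col4a5, Col27a1, Mmp13, Lamc1, Mmp17, Col5a1 and Col1a1, with adjusted p of 0.0119 to 0.04996. Leaving out replicate 2 of young ZT4 left 12 genes past the threshold.

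In nephritic kidneys, 6 genes varied over the day, against 17.2% of all tested genes. They were Col7a1 (adjusted p = 0.00511), Lamc3 (0.00781), Lama1 (0.00827), Lamb2 (0.0171), Adamtsl2 (0.0242) and Adamts7 (0.0371). Lamb2 was at 9.0 ± 0.64 at ZT0 and 9.14 ± 0.30 at ZT4, against 8.06 ± 0.18 at ZT20 (SD, n = 3 each, by limma), and all arrays of ZT0 and ZT4 are among the 8 that stood apart. Col7a1 was at 5.61 to 6.41 on those 8 arrays and at 4.95 to 5.82 on the other 14 nephritic arrays. Without the 8 arrays, over ZT8 to ZT20, 0 of the 61 genes varied by limma, with 4 at an unadjusted p under 0.05, against 0.0433% of all tested genes past the adjusted threshold. On all arrays the time courses of 8 genes differed between diagnoses (time by disease interaction), against 21.3% of all tested genes. They were Lamc3, Lamb2, Col7a1, Col27a1, Col3a1, Lamb1, Lama4 and Col23a1. Among the 52 genes detected on at least 3 arrays of each diagnosis there were 7. Col3a1 is not among the 52, because it met the detection limit only through nephritic arrays. Lama4 and Lamb1 are among the 52 but were detected on only 7 and 12 of the 22 nephritic arrays. Without the 8 arrays the interaction was past the threshold for 0 genes by limma, with 5 at an unadjusted p under 0.05, against 0.502% of all tested genes past the adjusted threshold. Over the same 4 times with every array it was also past it for 0, with 3 at an unadjusted p under 0.05. With a covariate for the 8 arrays, 0 genes passed the nephritic time test and 0 the interaction in limma, with 4 at an unadjusted p under 0.05 in each, against 0.242% and 2.01% of all tested genes past the adjusted threshold. With title codes as a random block 3 genes passed the nephritic time test and 0 the interaction. Without the RX arrays more genes passed the nephritic time test, and with a cosinor fewer did. Those counts are given in the last section. Leaving out replicate 2 of nephritic ZT4 left 3 genes in each of these 2 tests, and replicate 2 or 4 of young ZT4 left 5 in the interaction. For Col4a1 and Col4a2, whose means differed between times in young kidneys, the interaction did not pass in limma (adjusted p = 0.776 and 0.250). A change of their daily course in nephritis was not detected, which does not show that the course was unchanged.

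**Figure D5:**
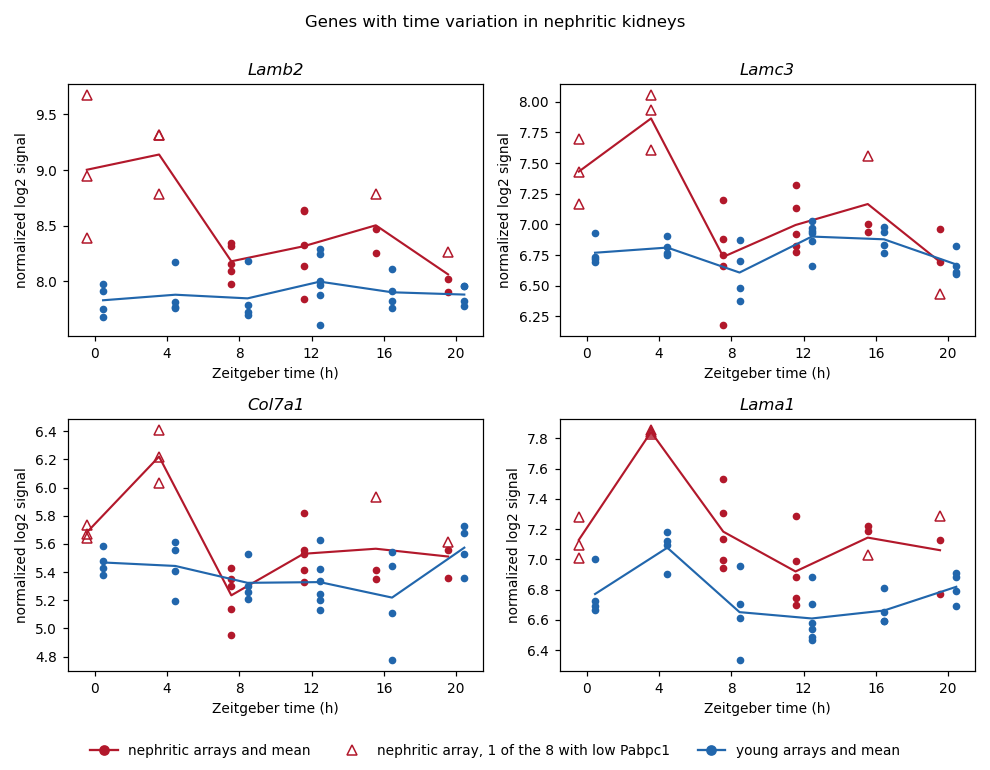
Normalized log2 signal by Zeitgeber time (h) of 4 genes that varied over the day in nephritic kidneys, nephritic and young arrays with lines through group means. Open triangles are the 8 nephritic arrays with low Pabpc1, which include every nephritic array of ZT0 and ZT4. Lamb2, Lamc3, Col7a1 and Lama1 have their highest nephritic mean at ZT4.

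Genes whose products act with these proteins were followed as lists, whose counts stand against 36.5% of all tested genes higher and 28.6% lower. Among tissue inhibitors of the proteases, 2 of 5 were higher (40%) and 1 lower (20%). Timp1, an inhibitor of secreted Mmp enzymes, was at 5.63, 8.31 and 10.95 in nephritic kidneys and at 4.29, 4.57 and 5.04 in young kidneys, with no overlap. It was detected on all 22 nephritic and on 11 of the 26 young arrays. With young values under the lowest detected signal of their array raised to it, it was at least 10.6-fold higher in nephritic kidneys (limma adjusted p = 8.35e-12). Timp2 was higher by 0.66 ± 0.08 and Reck, a membrane inhibitor of Mmp14, fell by 0.45 ± 0.07. Of 19 matrix glycoproteins and proteoglycans 14 were higher (73.7%), led by Thbs2 (1.41), Tnc (1.24) and Mgp (1.08), and Nid2, a linker of laminin and collagen IV, was lower (-0.35). Of 17 collagen-modifying enzymes and chaperones 12 were higher (70.6%), led by Loxl1 (1.06), Bmp1 (0.98) and Loxl2 (0.85), which cross-link collagens or trim procollagen. Pcolce2, an enhancer of that trimming, fell by 1.61 ± 0.12 (adjusted p = 7.41e-14) and Plod2 by 0.17. Of 17 matrix receptors 7 were higher (41.2%) and 3 lower (17.6%), shares near or under those of all genes, with Cd44, a hyaluronan receptor, at 5.83, 6.93 and 8.59 in nephritic kidneys and at 4.45, 4.84 and 5.29 in young kidneys, again without overlap. Itgb4 (1.10) and Sdc4 (0.94) followed it upwards, and Itgav (-0.57) and Itga1 (-0.19) were the lower receptors with the largest differences. Of 20 TGF-beta and plasminogen genes 9 were higher (45%), led by Tgfbi (1.51), Tgfb1 (1.27) and Tgfb3 (0.61), and 5 were lower (25%), also near the shares of all genes, led by Tgfbr3 (-0.44) and Bsg (-0.39).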

How the data were processed

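Per the labels, 48 1-colour Illumina MouseRef-8 v2.0 arrays were hybridised, each with RNA of 1 kidney. The authors extracted the deposited signal intensity and detection p-value of each probe with GenomeStudio (version not given in the sources used here). The intensity was on a linear scale and not normalized between arrays. Groups came from the labels and replicates were numbered in listing order. Signals were background-corrected with normexp (offset 16), quantile-normalized and log2-transformed (neqc, limma 3.58.1, R 4.3.3). Probes detected on at least 3 of 48 arrays were kept (16980 of 25697), each gene was read from its brightest probe, and 11559 genes were tested. Of the probes, 23978 had 1 symbol in the platform annotation, 0 several and 1719 none. A limma fit of 12 group means gave the difference between diagnoses, averaged over times and at each time, and the interaction (5 degrees of freedom). A moderated F-test gave time variation within each diagnosis. P-values were adjusted by Benjamini-Hochberg over all tested genes. They measure the spread between single kidneys. The steps were tested on simulated data. The members and lists were chosen with earlier results of these data known. Named were the 12 genes with the largest difference, all collagen IV and laminin chains, up to 8 genes for each time test, and up to 3 higher and 2 lower genes of each partner list. The authors' processed intensity table served as an alternative, beside other scalings, filters, array subsets, a title-code block, array weights, a cosinor (24 h) and leaving out each array. Precision is limited by the number of arrays and, for dim probes, by background.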

Additional observations from a re-analysis of the deposited data

Results flagged for a closer look

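Time courses of 8 genes differed between nephritic and young kidneys by the interaction test, with adjusted p of 0.00350 for Lamc3, 0.00493 for Lamb2, 0.0161 for Col7a1, 0.0277 for Col27a1, 0.0285 for Col3a1, 0.0305 for Lamb1, 0.0386 for Lama4 and 0.0482 for Col23a1. All nephritic arrays of ZT0 and ZT4 are among the 8 arrays with low Pabpc1, and without those 8 arrays none of these 8 tests passed in limma, with 5 of the 61 genes at an unadjusted p under 0.05. On the 8 arrays Lamb1 was at 4.21 to 4.35, against 4.28 to 5.20 on the other 14 nephritic arrays and 4.57 to 5.21 on young arrays. Col3a1 met the detection limit only through nephritic arrays, and its young level lay at background. Lama4 and Lamb1 were detected on only 7 and 12 of the 22 nephritic arrays.

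For 31 genes, the farthest array of each group of 4 to 6 arrays was compared with the rest of its group, which left out nephritic groups of 3. Of 248 such groups, 15 held an array set apart by a gap that chance gives in about 1 of 20 groups. In nephritic kidneys, all of ZT8, Adamts7 was at 5.40 on replicate 5 (others 4.83 to 4.97), and replicate 4 was low for Col27a1 (5.22, others 6.01 to 6.07) and for Col4a4 (8.11, others 8.79 to 8.88). In young kidneys, replicate 1 of ZT20 was high for Adamts7 (5.0), Col4a1 (10.53) and Col6a2 (5.47), and replicate 3 of ZT20 was high for Adamtsl4 (6.01). Young ZT8 was low on replicate 2 for Col23a1 (5.50) and on replicate 4 for Col4a1 (10.29), and high on replicate 1 for Lamb3 (6.68). Young ZT16 was high on replicate 4 for Col4a2 (9.75) and on replicate 3 for Lama4 (5.25). Young ZT4 was low on replicate 3 for Lamb1 (4.77) and high on replicate 2 for Lamb2 (8.17), and young ZT12 was low on replicate 4 for Mmp2 (6.65).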

How the results depend on the processing

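Of the 41 genes that differed in level, 15 passed the threshold under every alternative and on leaving out any array, and 37 passed on leaving out any array. A covariate for the 8 arrays, which rests on 2 arrays at times that also hold others, left 13 higher and 3 lower, 0 at ZT0 (6 at an unadjusted p under 0.05 in limma), 4 at ZT4, 3 at ZT16, 1 at ZT20, 0 in the nephritic time test and 0 in the interaction. With it, Adamts7 (-0.0146), Mmp11 (-0.00854) and Mmp9 (-0.123) changed sign, as did Adamts7 (-0.0663) without the 8 arrays. Without those arrays, 1 gene passed at ZT16, 2 at ZT20, and 0 in the nephritic time test and the interaction. Title codes fitted as a random block gave these counts: 5 at ZT0, 16 at ZT4, 5 at ZT8, 12 at ZT12, 2 at ZT16, 0 at ZT20 (4 unadjusted in limma), 9 in the young time test, 3 in the nephritic one and 0 in the interaction. Median scaling gave 9 at ZT8, 1 at ZT20, 3 in the nephritic time test and 4 in the interaction. At ZT20, the authors' processed values gave 2 and no detection filter 1. Without the other codes of ZT12, 10 varied in nephritic kidneys, and a cosinor gave 1. Array weights gave 4 interactions. Chosen after seeing the data, ZT8 to ZT20 with all arrays gave 2 at ZT20 and 0 interactions, and leaving out the HIL arrays gave 3 at ZT12. The cause was not tested. Leaving out each array in turn gave 32 to 36 higher and 5 to 7 lower genes, 14 to 26 at ZT0, 22 to 29 at ZT4, 8 to 18 at ZT8, 13 to 29 at ZT12, 2 to 21 at ZT16, 1 to 5 at ZT20, 12 to 21 in the young time test, 3 to 8 in the nephritic one and 3 to 10 in the interaction. ZT8 fell to 8 to 10 without replicate 2, 3 or 4 of young or replicate 4 or 5 of nephritic ZT8. ZT16 fell to 9 without replicate 2 or 3 of young ZT16. ZT20 fell to 1 or 2 without any of the 4 young arrays or replicate 2 or 3 of nephritic ZT20. No paired analysis was possible because the labels give no replicate numbers that the diagnoses share. Dim genes near background are the least precise.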
